A study of Mus musculus with 38 samples.

Results

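At the distal end of mouse chromosome 6, 10 protein-coding genes stood out for the amount of LAP2B over them in cells without the lamin B receptor. They are Far2, Ergic2, Tmtc1, Ipo8, Caprin2, Dennd5b, Etfbkmt, Amn1, Resf1 and Bicd1, and they were taken by symbol from 78202 annotated genes. They had been chosen by measured values, namely that LAP2B near this end had been higher in LBRKO than in WT cells at both stages. That difference is therefore described here without a test. All 10 genes passed the filter on low values that left 70381 genes in the tests. The label of a gain held for 9 of the 10 genes in naive cells, while the Far2 libraries of LBRKO and WT overlapped there.

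The lamina is a protein mesh under the inner nuclear membrane, and the long chromosome regions that lie against it are called lamina-associated domains. They are usually poor in active genes. LBR is a membrane protein that binds heterochromatin and, together with the lamins, holds such regions at the nuclear edge. LAP2B, the beta isoform made from Tmpo, is another protein of the inner nuclear membrane, which made it usable as a mark of that edge in naive cells without lamins or LBR. In WT EpiLCs the study saw LAP2B signal both inside and outside the domains marked by LMNB1 and did not use it as a stand-in for them, so the EpiLC values here are LAP2B coverage and not a measure of lamina contact.

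Mouse embryonic stem cells were kept in the naive state in 2i and LIF medium or turned for 48 h into epiblast-like cells (EpiLCs) with FGF and Activin A. CUT&RUN, in which a nuclease held by an antibody cuts out the nearby DNA, was run for LAP2B in 4 genotypes at both stages, and for LMNB1 (lamin B1) and for a non-specific IGG in WT cells only, with 3 libraries in each of 12 groups. The genotypes were WT, LBRKO (Lbr disrupted with Cas9 in the WT line), TKO (a separate line from the same source that lacks lamins A/C, B1 and B2) and QKO (a single clone in which Lbr was disrupted in TKO cells). The LBRKO clone used for CUT&RUN was not named, so LBRKO is read here as 1 line. By karyotype, some cells of the WT line carried an extra copy of chromosomes 6 and 8, and the TKO line carried an extra chromosome 8. Some cells of both lines had lost the Y chromosome. The study names no karyotype of the LBRKO cells. It says that QKO cells were karyotyped, but its methods describe no QKO result. Nothing says that the 3 libraries of a group came from separate cultures, so p-values measure the spread between these libraries, which may be technical. The libraries were made from bulk cells, so more LAP2B signal in each cell and more cells with signal cannot be told apart.

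The deposited value of a gene is a sum of scaled coverage over the 1 kb bins that it touches. Here the values of a library were taken relative to its median gene, and levels are given per bin, where the median of all tested genes lay between 0.176 and 0.207 in the 8 LAP2B groups. Differences are log2 differences of the relative values. The reads recovered from the tables summed to between 12608484 and 41198406 per LAP2B library, and a listed gene held between 182 and 26463 of them, a range in which counting error matters most for Etfbkmt, the gene with the fewest bins. Lbr, the targeted gene on chromosome 1, was covered in every LAP2B library, at 0.143, 0.134 and 0.177 per bin in naive WT and 0.238, 0.227 and 0.272 in naive LBRKO, and at 0.160, 0.176 and 0.164 in WT and 0.171, 0.218 and 0.194 in LBRKO EpiLCs. In TKO it was at 0.216, 0.152 and 0.184 in naive cells and 0.188, 0.221 and 0.204 in EpiLCs, and in QKO at 0.299, 0.256 and 0.273 and at 0.230, 0.249 and 0.190. Coverage of genomic DNA does not show whether a small deletion inactivated the gene, so this is no check of the labels, and the cell state cannot be checked from it either.

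The 10 genes lay on chr6:147948548-149464827 (GRCm39), a stretch of 1.52 Mb that ended 0.123 Mb before the end of the chromosome. Of these, 4 were on the plus and 6 on the minus strand. Far2 and Ergic2 overlapped in 7 bins and are not fully separate measurements. The genes were 37.2% to 43.0% GC, with a median of 39.9%, beside 45.4% for all tested genes. No protein-coding gene that was tested lay beyond Bicd1. Their upstream windows of 250 bases in the RefSeq table (GRCm38.p6), all found once by exact match on GRCm39 chromosome 6, held 8 to 28 CG dinucleotides (median 13.5), beside a median of 6 over 32851 promoters. By the GRCm39 gene annotation only the window of Ergic2 lies wholly outside its gene. Those of Far2 and Etfbkmt lie wholly inside theirs and the others partly, so these counts include bases within the annotated genes. Of all promoters, 92.1% held at least 1 CG. The bases upstream of Ergic2 and Caprin2 are shown because the former gene is the nearest to the edge of the region to be clearly higher in LBRKO at both stages and the latter is among the genes with the highest difference in EpiLCs. CG dinucleotides are in capitals, both runs read 5′ to 3′ on the minus strand, and only bases outside the annotated gene itself are given. The first run is at chr6:148113873-148114122, where 2 other annotated genes overlap it, and holds 12 CG. The second run is at chr6:148797768-148797985 and holds 17 CG.
Ergic2: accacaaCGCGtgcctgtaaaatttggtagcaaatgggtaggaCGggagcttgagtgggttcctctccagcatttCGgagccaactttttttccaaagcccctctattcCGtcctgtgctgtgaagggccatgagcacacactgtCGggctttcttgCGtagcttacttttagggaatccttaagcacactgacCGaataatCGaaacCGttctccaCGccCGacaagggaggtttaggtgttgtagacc
Caprin2: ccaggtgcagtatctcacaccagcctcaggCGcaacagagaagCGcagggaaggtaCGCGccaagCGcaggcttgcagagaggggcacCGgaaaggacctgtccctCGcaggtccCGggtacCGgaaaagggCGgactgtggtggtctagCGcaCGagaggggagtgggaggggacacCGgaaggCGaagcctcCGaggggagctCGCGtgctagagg

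LAP2B over Caprin2, an RNA-binding protein of the Wnt pathway, was at 0.272, 0.247 and 0.253 per bin in WT EpiLCs and at 1.23, 1.19 and 0.987 in LBRKO EpiLCs. In naive cells the same gene was at 0.551, 0.638 and 0.501 in WT and at 1.88, 1.18 and 1.54 in LBRKO. The second naive LBRKO library was the lowest of its group here, as it was for each of the 10 genes. The LBRKO libraries were all above the WT libraries at both stages, by a log2 difference of 2.13 ± 0.12 (SE) in EpiLCs and 1.42 ± 0.12 in naive cells, or 4.37-fold and 2.68-fold.

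Dennd5b, which encodes a DENN-domain activator of Rab GTPases, was at 0.298, 0.307 and 0.250 per bin in WT and 1.26, 1.30 and 1.17 in LBRKO EpiLCs, a log2 difference of 2.13 ± 0.11. In naive cells it was at 0.576, 0.703 and 0.508 in WT and 1.96, 1.36 and 1.70 in LBRKO, a log2 difference of 1.49 ± 0.11. The 3 values of each LBRKO group were again all above those of WT. Ipo8, an importin that carries cargo into the nucleus, showed log2 differences of 1.97 in EpiLCs and 1.42 in naive cells. Amn1, related to a yeast regulator of exit from mitosis, showed 1.84 and 1.40, and Bicd1, an adaptor for the motor dynein, 1.78 and 1.21.

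Etfbkmt, a methyltransferase of the mitochondrial electron transfer flavoprotein, had the largest naive difference of the 10. Its naive values were 0.494, 0.485 and 0.452 in WT and 1.77, 1.49 and 1.54 in LBRKO, a log2 difference of 1.73 ± 0.12, beside 1.57 ± 0.12 in EpiLCs. Resf1, a factor that acts with SETDB1 to silence retroelements, showed 1.42 ± 0.14 in naive cells and 1.46 ± 0.14 in EpiLCs. Tmtc1, which adds mannose to cadherins, showed 0.99 and 1.48, and Ergic2, a protein of the compartment between the endoplasmic reticulum and the Golgi, 1.17 and 1.22. Ergic2 was at 0.360, 0.401 and 0.390 in WT and 1.06, 0.703 and 0.869 in LBRKO naive cells, and at 0.267, 0.235 and 0.247 and at 0.588, 0.632 and 0.541 in EpiLCs. These genes too had no overlap between LBRKO and WT libraries at either stage.

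Far2, a fatty acyl-CoA reductase and the most proximal of the 10, was the exception. In naive cells it was at 0.355, 0.443 and 0.345 in WT and at 0.528, 0.381 and 0.410 in LBRKO, so the groups overlapped, and the log2 difference was 0.20 ± 0.10. In EpiLCs it was at 0.317, 0.275 and 0.271 in WT and 0.391, 0.399 and 0.369 in LBRKO, without overlap, with a difference of 0.43 ± 0.10. Over the 10 genes the median difference was 1.41 in naive cells and 1.68 in EpiLCs, beside 0.05 and 0.01 over all tested genes. The libraries did not overlap for 9 of the genes in naive cells, where 29% of all tested genes were higher without overlap, and for 10 in EpiLCs, where 20.6% were. Since this contrast chose the genes, nothing is read from these counts.

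**Figure D1:**
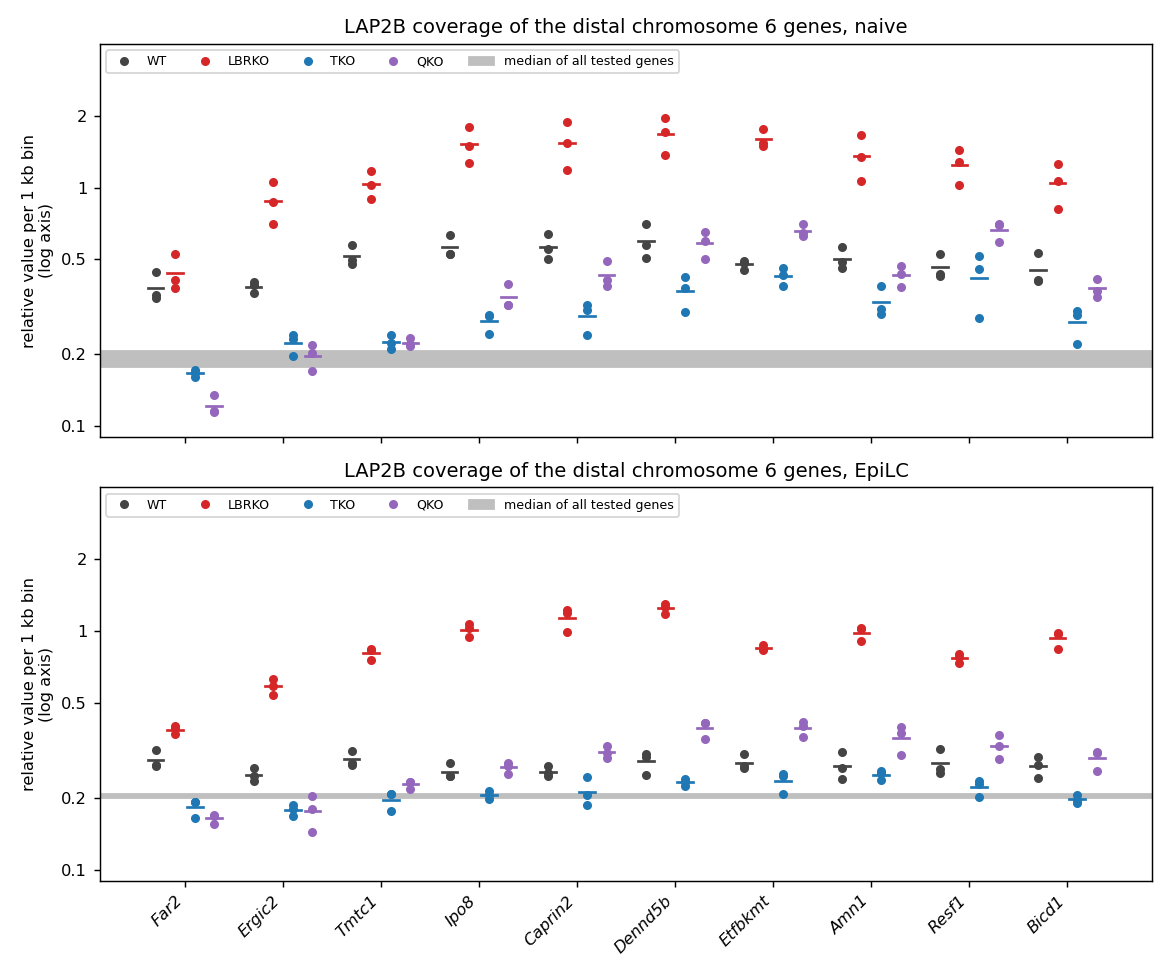
Relative LAP2B value per 1 kb bin (log axis) of the 10 genes, in order along chromosome 6, with naive cells above and EpiLCs below. Points are the 3 libraries of each genotype and short lines their means. The grey band is the median of all tested genes. LBRKO libraries lie highest for each gene except Far2 in naive cells, where they overlap WT.

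In LBRKO the genes reached the top of the distribution over all tested genes. Ranked by level per bin, their median was at percentile 99.8 in both naive cells and EpiLCs, with Far2 the lowest at 90.2 and 92.7. In WT they were already high in naive cells, at a median percentile of 95.6 and a range of 88.2 to 98.1, and stood at a median of 83.7 in EpiLCs. In TKO the median percentile was 78.9 in naive cells and 51.8 in EpiLCs. In QKO it was 80.3 in naive cells and 81.8 in EpiLCs.

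Between Far2 and the chromosome end lay 47 other tested genes, of which 20 share bins with the listed genes and so partly repeat their values. The 27 that share none, mostly non-coding genes and pseudogenes, had median log2 differences of 1.20 in naive cells and 1.39 in EpiLCs, and 27 of 27 were above 0 at both stages. Sinhcaf, a subunit of the SIN3 histone deacetylase complex and the only protein-coding gene among them, was at 1.79 and 1.41. Rps4l, a ribosomal protein gene that lies inside Tmtc1 and is no separate measurement, was at 0.87 and 1.18. The difference was smaller on the other side of Far2. The 11 genes in the 0.6 Mb before it had medians of -0.24 in naive cells and 0.26 in EpiLCs, and Ccdc91, the nearest tested protein-coding gene on that side, was at -0.22 and 0.26.

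Farther from the end the difference was seen once more. The 36 genes between 0.6 and 1.5 Mb before Far2 had medians of 0.86 in naive cells and 0.90 in EpiLCs. Pthlh, the gene for parathyroid hormone-like peptide, was at 0.26 and 0.39. Klhl42, a substrate adaptor of a ubiquitin ligase, was at 0.94 and 1.02, Mansc4 at 1.00 and 0.80, and the mitochondrial ribosomal gene Mrps35 at 1.14 and 1.24. Along the chromosome the profile thus dipped around Ccdc91 and was higher again from Ergic2 to the end.

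**Figure D2:**
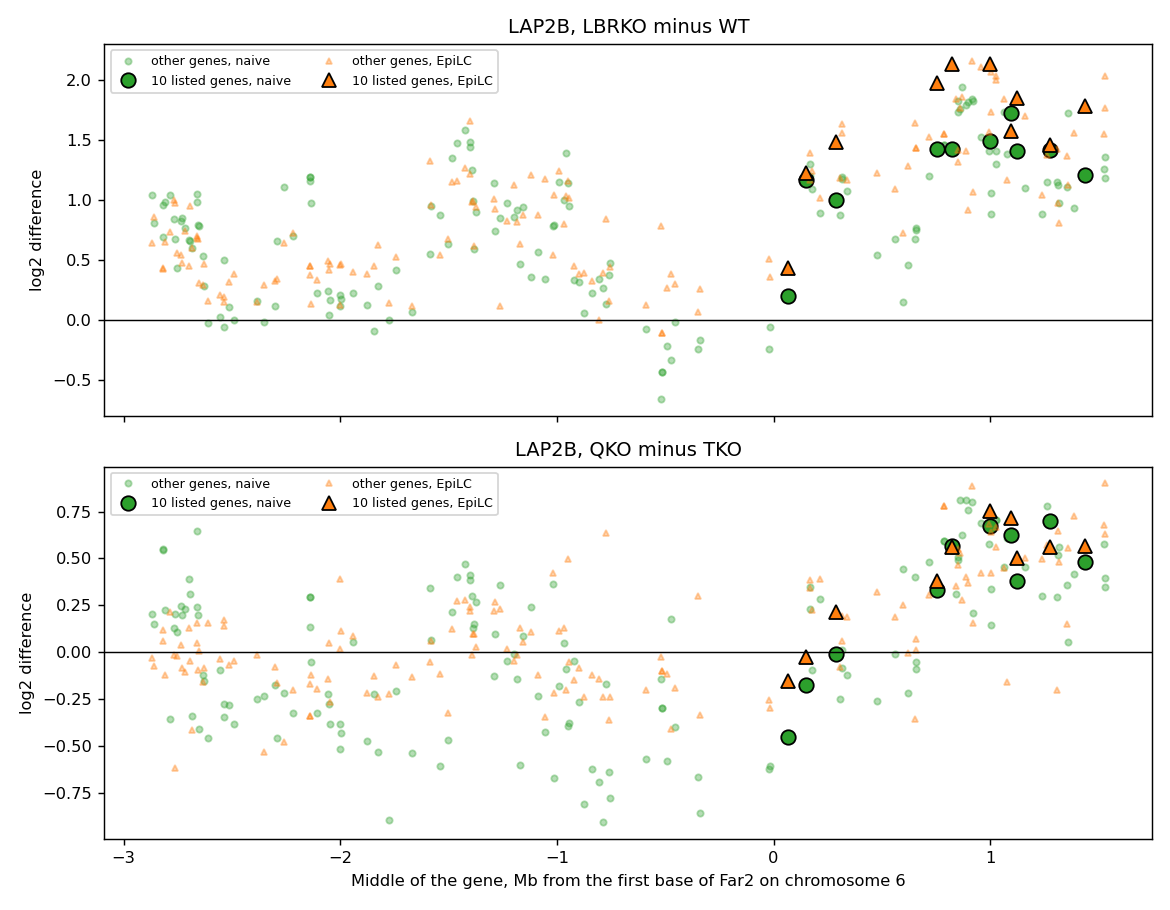
Log2 difference in LAP2B of each tested gene against the position of its middle, in Mb from the first base of Far2, for LBRKO minus WT above and QKO minus TKO below. Large symbols are the 10 genes, small ones the other genes, circles naive cells and triangles EpiLCs. In both panels Far2 is the lowest of the 10 at both stages, and Dennd5b is the highest in EpiLCs, at 2.13 in the upper panel and 0.75 in the lower one.

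In 2550 windows of 1 Mb with at least 5 tested genes, the windows at 148 to 149 Mb and 149 to 150 Mb of chromosome 6 had the highest median LBRKO differences in EpiLCs (1.48 and 1.5). In naive cells they ranked 31 and 34, at 1.20 each, and the highest was a window on chromosome 11 at 86 to 87 Mb with 1.70. Ranked by the smaller of both stages, that window was first (1.27) and the chromosome 6 windows were next (1.20 each), followed by the window at 134 to 135 Mb of chromosome 6 (1.19). These ranks use the contrast that chose the genes and depend on the settings. On the spike-in scale the windows from 148 and 149 Mb ranked 1 and 2, and with windows of 0.5 Mb the ranks were 15 from 148 Mb, 1 from 148.5 Mb and 7 from 149 Mb. The 138 windows of chromosome 6 before the one with the start of Far2 ranged from -1.41 to 1.65 in naive cells and from -0.85 to 1.19 in EpiLCs, and 76 and 42 of them were below 0.

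A gain of chromosome 6 in LBRKO would raise its genes together. With 3 copies in place of 2, coverage in proportion to copies would be 1.5 times as high, a log2 difference of 0.58. Some WT cells already carried an extra chromosome 6, so against this WT line the difference would be smaller. To set the genes beside others of like lamina contact, all tested genes were put into deciles by their WT LMNB1 level per bin at the same stage, which the choice of genes did not use. In LBRKO, the genes of chromosome 6 before Far2 were above those of chromosomes other than 6 and 8 in 10 of 10 deciles at both stages. The excess was 0.09 to 0.56 in naive cells and 0.18 to 0.47 in EpiLCs, and it was smallest in the decile with the most LMNB1. Chromosome 8 was above the others in 6 deciles in naive cells and 4 in EpiLCs, and in naive deciles 7, 8 and 9 its excess (0.46, 0.53 and 0.44) was larger than that of chromosome 6 (0.42, 0.30 and 0.28). Relative to their deciles, the genes of chromosome 6 had a median of 0.35 in naive cells and 0.36 in EpiLCs, the highest of 21 chromosomes at both stages. In naive LBRKO cells chromosome 11 ranked 2, at 0.20, above chromosome 8 at 0.17. In TKO against WT, chromosome 8 was the highest in EpiLCs, at 0.25. It was second in naive cells, at 0.22, where chromosome 17 was the highest at 0.23. No extra copy was named for chromosomes 11 and 17. In QKO against TKO, chromosome 8 ranked 3 in naive cells (0.17) and 2 in EpiLCs (0.08). What these ranks owe to copy number was not tested. In QKO against TKO, chromosome 6 was below the other chromosomes in 10 of 10 deciles in EpiLCs, at -0.16 to -0.03, and above them in 3 of 10 in naive cells, at -0.47 to 0.08.

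The 10 genes were set beside the same deciles, as a description of the values that chose them. In naive cells 9 of them were in the highest LMNB1 decile and Far2 in decile 9, and the medians of genes outside chromosome 6 in these deciles were -0.64 and -0.70. In EpiLCs Bicd1 was in decile 10, Etfbkmt in decile 7 and the other genes in decile 9. Relative to their deciles, the genes had a median of 2.05 in naive cells (0.91 at Far2 to 2.36 at Etfbkmt) and 1.79 in EpiLCs (0.61 to 2.31). Set beside the genes of chromosome 6 before Far2 in the same decile, a comparison added after the data had been seen, the medians were 1.95 and 1.58. There Tmtc1, Ipo8, Caprin2, Dennd5b, Amn1, Resf1 and Bicd1 were each above all genes of their decile in EpiLCs. With each library divided instead by the median of proximal chromosome 6 genes, the median LBRKO difference of the 10 was 1.14 in naive cells and 1.32 in EpiLCs. Copy number, of chromosome 6 or of its distal end alone, was not tested, since IGG was mapped in WT cells only and coverage without LAP2B in LBRKO was not measured here.

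**Figure D3:**
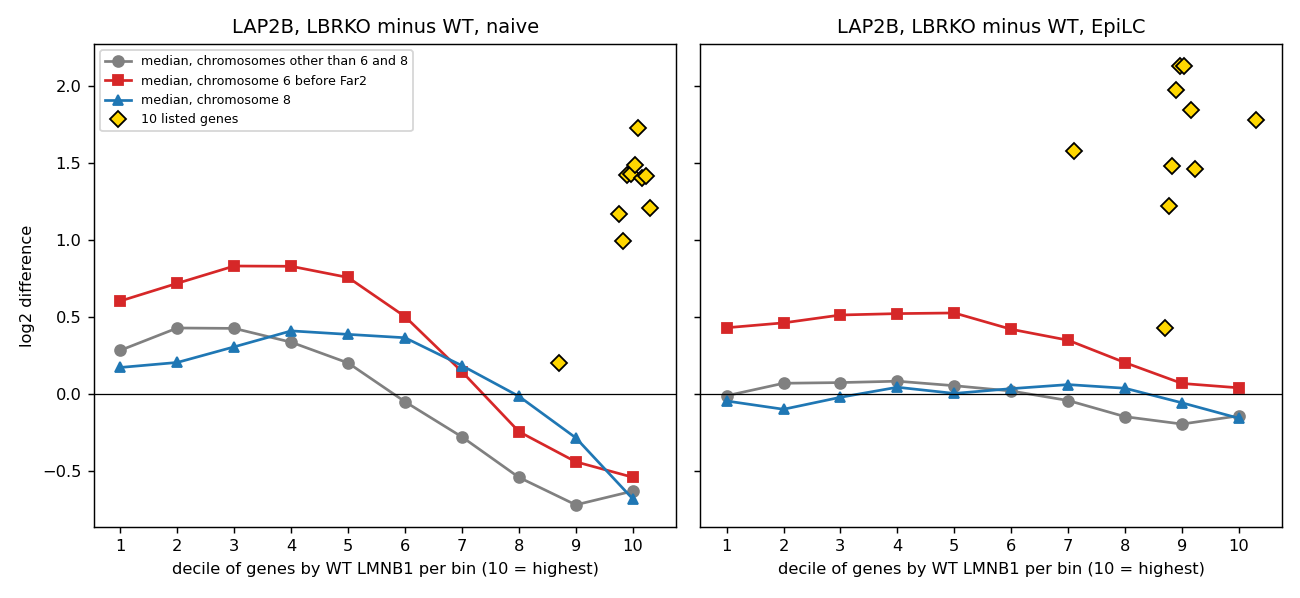
Log2 difference in LAP2B, LBRKO minus WT, against deciles of genes by WT LMNB1 per bin, in naive cells (left) and EpiLCs (right). Lines are medians of the genes of chromosome 6 before Far2, of chromosome 8 and of the other chromosomes, and diamonds are the 10 genes, spread sideways within their decile. The chromosome 6 line is above the grey line in each decile, and 9 of the 10 diamonds are at 0.99 or more.

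Whether the genes also differ with LBR in cells without lamins was asked with QKO against TKO. The group means compared there share no library with the comparison that chose the genes. The SEs and p-values use the spread over all LAP2B libraries, those of LBRKO and WT included. In naive cells 7 of the 10 genes rose in QKO by the limma test with Benjamini-Hochberg adjustment over all genes, where 26.5% of all tested genes did, and Far2 fell, where 27% did. The median difference was 0.43, beside -0.06 over all genes. In EpiLCs 6 of the 10 rose, where 0.933% of all tested genes (657) did and 0.27% were lower, and the median difference was 0.53, beside -0.02. Of the 657 genes, 10 lay between Far2 and the chromosome end, namely 6 of the listed genes, 2 that share bins with listed genes and 2 that do not, and 10 lay elsewhere on chromosome 6.

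Dennd5b was at 0.224, 0.232 and 0.240 per bin in TKO and 0.413, 0.413 and 0.352 in QKO EpiLCs, without overlap. Its log2 difference was 0.75 ± 0.11 (limma adjusted p = 0.000145), beside 0.67 ± 0.11 in naive cells. Etfbkmt was at 0.247, 0.207 and 0.253 in TKO and 0.399, 0.415 and 0.361 in QKO EpiLCs, a difference of 0.72 ± 0.12 (limma adjusted p = 0.000893). Caprin2, Resf1 and Bicd1 rose by 0.56 each in EpiLCs and by 0.57, 0.70 and 0.48 in naive cells, and Amn1 rose by 0.50 and 0.38. All QKO libraries were above all TKO libraries for 6 of the 10 genes in naive cells, where 28.4% of all tested genes did so, and for 8 in EpiLCs, where 12.3% did. The naive libraries of Amn1 overlapped.

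Genes at the proximal side of the set gave smaller or opposite values. Ipo8 rose in naive cells by 0.33 ± 0.11 and was at 0.38 ± 0.11 in EpiLCs (limma adjusted p = 0.0598), although all 3 QKO libraries were above all 3 of TKO. Tmtc1 was at -0.01 ± 0.09 in naive cells and 0.21 ± 0.09 in EpiLCs, and Ergic2 at -0.18 ± 0.13 and -0.03 ± 0.13, none past the threshold. Far2 was at 0.173, 0.161 and 0.167 in TKO and 0.115, 0.136 and 0.115 in QKO naive cells and fell by 0.45 ± 0.10 on the log2 scale, while in EpiLCs it was at -0.15 ± 0.10. Relative to genes outside chromosome 6 in the same LMNB1 decile, as a description without a test, the 10 genes had a median of 1.16 in naive cells, with 10 of 10 above 0 (0.21 at Far2 to 1.43 at Resf1). In EpiLCs it was 0.66, with 9 of 10 above 0 and Far2 at -0.03. The median of the decile with the most LMNB1 was -0.73 in naive cells and -0.12 in EpiLCs. In EpiLCs most of the 10 genes were instead in decile 9, where chromosomes other than 6 and 8 had a median of -0.14. The difference between stages was past the threshold for 0 of the 10 genes, where it was for 26.6% of all tested genes.

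The QKO direction depended on how libraries were scaled. Division by the median gene removes a shift shared by all genes. In naive TKO and QKO cells the study reported a lower LAP2B yield against spike-in DNA than in WT. On the spike-in scale of the deposited values, the median of all tested genes was -0.54 in naive cells and -0.57 in EpiLCs and that of the 10 genes -0.18 and -0.08, so they were 0.36 and 0.49 above the median gene, but 0 of them were called higher, where 6.23% and 0.00142% of all genes were. On that scale 3 and 2 of them were called lower, where 40.4% and 28.3% of all genes were. The EpiLC count also changed when single libraries were left out. It was 2 without the first or without the second QKO library, 3 without the first or the second TKO library and 4 without the third. The shares of all genes in these smaller fits are not given, so only the range of the count is read. With values per bin in the fit the EpiLC count was 1, where 0.101% of all genes were higher.

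In TKO against WT, separate lines that differ in the lamins and in karyotype, 8 of the 10 genes fell in naive cells. There 27.4% of all tested genes did, and the median of the 10 was -0.75. In EpiLCs 5 fell, where 9.9% did, with a median of -0.32, and 2 did with libraries divided by the median of proximal chromosome 6 genes, where 5.39% did. Relative to their deciles, the 10 genes had a median of -0.11 in naive cells, with 3 of 10 above 0, and of 0.01 in EpiLCs, with 5 of 10 above 0. The EpiLC direction depended on the deciles. It was -0.18 with deciles by WT LAP2B (1 of 10 above 0) and 0.12 with LMNB1 of the other stage (6 of 10). Chromosome 6 as a whole was low relative to deciles, at -0.09 in naive cells and -0.11 in EpiLCs, ranks 18 and 19 among the chromosomes. Beside chromosome 6 genes before Far2, a reference added after the data had been seen, the 10 had medians of -0.004 and 0.11. What this owes to the extra chromosome 6 of some WT cells was not tested. The decile with the most LMNB1 was itself at -0.65 in naive cells. These comparisons share the WT libraries with the one that chose the genes. Tmtc1 fell by 1.19 ± 0.09 and Far2 by 1.18 ± 0.10 on the log2 scale in naive cells, the largest falls of the 10. Etfbkmt, at 0.430, 0.388 and 0.460 in TKO and 0.494, 0.485 and 0.452 in WT, overlapped in naive cells, as did Resf1 (-0.16 ± 0.12 and -0.18 ± 0.14).

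The direction in QKO against WT depended on the genes set beside the 10. Their median was -0.32 in naive cells and 0.17 in EpiLCs, but relative to their LMNB1 deciles it was 1.10, with 9 of 10 above 0, and 0.64, with 8 of 10 above 0. The EpiLC value was 0.39 with deciles by WT LAP2B (7 of 10 above 0) and 0.73 with LMNB1 of the other stage (9 of 10). Chromosome 6 as a whole was at -0.17 relative to deciles at both stages. Beside its genes before Far2 in the same decile, the 10 had medians of 1.27 in naive cells and 0.78 in EpiLCs. In naive cells Far2, Ergic2, Tmtc1, Ipo8 and Caprin2 fell (5 of 10, where 41.9% of all genes did), by as much as 1.63 ± 0.10 at Far2, and Etfbkmt and Resf1 rose by 0.46 ± 0.12 and 0.52 ± 0.14 (2 of 10, where 33.4% did). In EpiLCs Far2, Ergic2 and Tmtc1 fell (17.7% of all genes did) and Dennd5b, Etfbkmt and Amn1 rose (18.3% did). These tallies depended on the scaling. With libraries divided by the median of proximal chromosome 6 genes, 5 were higher and 3 lower in naive cells, where 44.4% and 29.2% of all genes were, and 7 higher and 1 lower in EpiLCs, where 36% and 8.44% were. Caprin2, Dennd5b, Amn1 and Bicd1 then turned above 0 in naive cells. On the spike-in scale, where the median gene was at -1.23 in naive cells and -0.75 in EpiLCs, 0 of the 10 were called higher at either stage, where 10.1% and 0.119% of all genes were, and 10 and 7 were called lower, where 65.1% and 55.3% were. Here too the WT libraries are shared with the contrast that chose the genes.

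**Figure D4:**
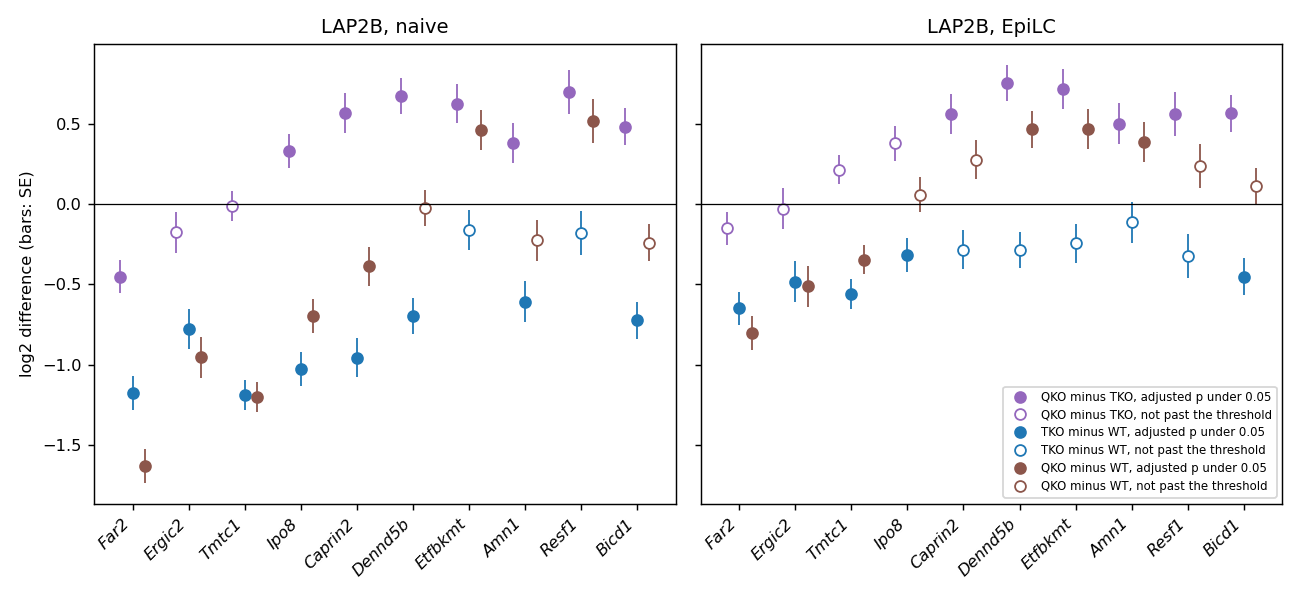
Log2 difference in LAP2B with its SE for the 10 genes in order along the chromosome, in naive cells (left) and EpiLCs (right), for QKO minus TKO, TKO minus WT and QKO minus WT. Filled points passed an adjusted p of 0.05. QKO minus TKO goes from -0.45 at Far2 to 0.70 at Resf1 in naive cells, and TKO minus WT is below 0 for each gene at both stages.

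The stage change in WT was measured with each of the 3 antibodies. LAP2B fell from naive cells to EpiLCs over 10 of the 10 genes, by 0.40 at Far2 to 1.12 at Ipo8 and Caprin2 on the log2 scale, where 17% of all tested genes fell. The libraries did not overlap for 10 of the 10, where 22.6% of all tested genes were lower without overlap. Those WT libraries were the reference of the contrast that chose the genes. LMNB1, in libraries that the choice did not use, fell over 9 of the 10, where 7.12% of all tested genes fell, with a median of -0.94 beside -0.05 over all genes, and its libraries did not overlap for 10 of the 10, where 17.3% were lower without overlap. Caprin2 was at 0.911, 0.552 and 0.794 per bin for LMNB1 in naive cells and at 0.364, 0.356 and 0.310 in EpiLCs, a fall of 1.10 ± 0.15 (limma adjusted p = 0.000198). Ipo8 fell by 1.10 ± 0.13 and Etfbkmt by 1.06 ± 0.17, while Far2 was at -0.29 ± 0.14 (limma adjusted p = 0.152). The upper end of the levels over all tested genes also fell with the stage. The level per bin above which their highest decile lay went from 0.450 to 0.356 for LMNB1 and from 0.400 to 0.308 for LAP2B. No genes of like LMNB1 level were set beside the 10 for this change, so whether the fall is particular to them was not tested. With values per bin in the fit 0 of all tested genes passed for LMNB1. On the spike-in scale 5 of the 10 were called lower for LMNB1, where 0.251% of all genes were, and 5 for LAP2B, where 1.74% were.

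For IGG, the background, the differences relative to the median gene were smaller. The 10 genes were at -0.30 to -0.10 with a median of -0.21, and 0 passed the limma threshold, where 0.396% of all tested genes were called lower and 0.071% higher. The libraries did not overlap for 3 of the 10 (Far2, Tmtc1 and Caprin2), where 10.5% were lower without overlap. At an unadjusted p under 0.05 there were 4 of the 10. The share of all tested genes at that threshold is not given, so nothing is read from that count. With edgeR on recovered reads 0 of the 10 were called as well. Caprin2 was at 0.294, 0.253 and 0.241 per bin for IGG in naive cells and 0.209, 0.208 and 0.222 in EpiLCs. By level, the genes were at a median percentile of 81.9 for IGG in naive cells and 62.7 in EpiLCs, beside 96.5 and 87.0 for LMNB1. The direction of the IGG difference depended on the scaling. On the spike-in scale, where the median gene was at 0.92, the 10 genes were at 0.73 to 0.90 with a median of 0.81 and 0 passed, while their medians were -0.62 for LAP2B and -0.65 for LMNB1. The part of the background in the LAP2B and LMNB1 differences was not tested.

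**Figure D5:**
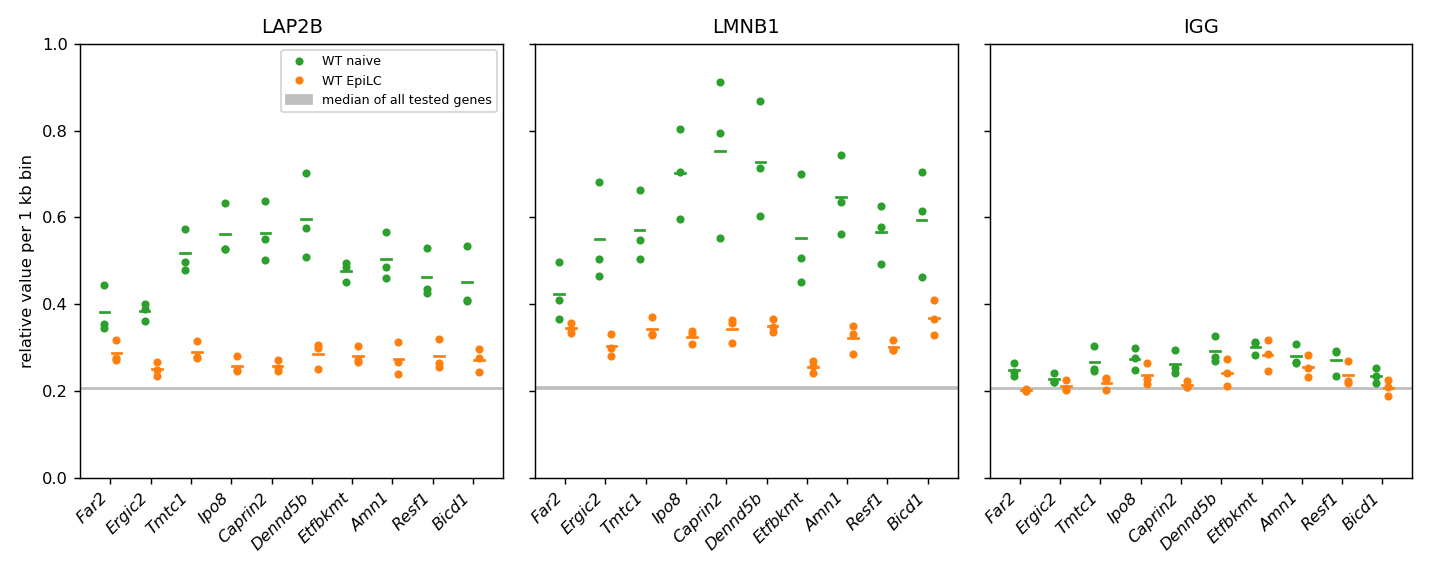
Relative value per 1 kb bin of the 10 genes in WT cells for LAP2B, LMNB1 and IGG, with separate colours for naive cells and EpiLCs. Points are the 3 libraries, lines their means, and the grey band is the median of all tested genes. For LAP2B and LMNB1 the naive points are above the EpiLC points for each gene, and for IGG the groups overlap for 7 of the 10 genes.

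Over the 24 LAP2B libraries, the 10 genes followed their common mean with Pearson correlations of 0.744 for Far2 and 0.917 (Resf1) to 0.997 (Ipo8) for the others, as a description, since each gene is part of that mean. The 5 other genes with the most similar pattern were Evi5, a regulator of Rab GTPases (0.989), the cohesin regulator Pds5b (0.988), the phosphatase gene Dusp16 (0.987), the Polycomb gene Pcgf3 (0.987) and the Wnt co-receptor gene Lrp6 (0.986). Evi5, Pds5b and Pcgf3 are on chromosome 5, and Dusp16 and Lrp6 are on chromosome 6, 13.3 and 13.5 Mb before Far2. Of the 100 most similar genes, 10 lay between Far2 and the chromosome end, 8 of which share bins with the listed genes so that their likeness is built in, 15 elsewhere on chromosome 6 and 75 on other chromosomes. The libraries share their genotype and stage, so these values describe a pattern over 8 groups more than over 24 separate points.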

How the data were processed

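CUT&RUN of mouse cells with antibodies to LAP2B (24 libraries), LMNB1 (6) and IGG (6) was used, and 2 H3K9me3 samples were left out. The study's methods state that reads were aligned to mm39 with Bowtie2 2.3.5.1, with yeast (sacCer3) spike-in DNA for scaling, and filtered with SAMtools 1.10, and deepTools computed coverage in 1 kb bins. The deposited signal of a gene was found to be the sum of spike-in scaled RPKM over the bins it touches, not divided by its length: in 343 of 343 sets of genes that lie in 1 shared bin the values were equal (difference under 0.0001). The step that joined bins to genes is not given in the sources used here. Values were whole multiples of a step for 100% of entries (tolerance 0.05 of a step), which gave back the reads. The sums were 12608484 to 41198406 for LAP2B, 29522895 to 37189077 for LMNB1 and 12028659 to 45689196 for IGG, and they count a read once for each gene whose bins hold it.

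The 10 genes, the gene lists and the tests were chosen with earlier results of these data known. Values were taken relative to the median gene of their library, 0.1 of that median was added before the log2, and the lowest 0.1 of genes was left out, so that fold changes are on that scale and are understated for low genes. All LAP2B groups entered a single limma 3.58.1 fit (R 4.3.3, empirical Bayes with trend, two-sided, Benjamini-Hochberg over 70381 genes, adjusted p under 0.05), and LMNB1 and IGG were fitted separately. Coordinates of 78131 genes (99.9%) came from the GRCm39 annotation. The fit was also run on simulated data in which each gene varied independently. Such data cannot speak to genes that share bins or regional signal, and nothing is read from that run here. Named beside the 10 genes were the 5 nearest tested protein-coding genes on the proximal side, the 2 other protein-coding genes within the stretch, the 5 most similar genes over the LAP2B libraries and Lbr. Alternatives were other pseudocounts, filters and scalings, values per bin, edgeR 4.0.16 on recovered reads with TMM or DESeq2 1.42.0 size factors, a replicate block and leaving out each library. Same-numbered libraries showed little shared deviation (correlations of -0.25 to 0.18), and the main fit did not pair them. The labels do not say whether same-numbered libraries were made together. Python 3.11.15 with numpy 2.4.6, pandas 2.3.3 and matplotlib 3.10.9 made the tables and plots. Tables of transposable elements carry no coordinates and were not used.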

Additional observations from a re-analysis of the deposited data

Results flagged for a closer look

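The difference in LAP2B between TKO and WT was not the same at the 2 stages for 4 of the 10 genes (limma interaction test, 9.57% of all tested genes passed). The EpiLC effect of TKO minus WT was above the naive effect by 0.528 at Far2, 0.629 at Tmtc1, 0.708 at Ipo8 and 0.672 at Caprin2 on the log2 scale. For QKO minus WT, 7 of the 10 genes passed, where 45.8% of all tested genes did. There the EpiLC effect was above the naive effect by 0.829 at Far2, 0.442 at Ergic2, 0.856 at Tmtc1, 0.754 at Ipo8, 0.664 at Caprin2, 0.491 at Dennd5b and 0.611 at Amn1. All 11 differences that passed were positive. Far2, Tmtc1, Ipo8 and Caprin2 count in both contrasts, so these are not 11 separate results. The share of positive differences over all genes is not given. Of the genes that did not pass, Etfbkmt (-0.083) and Resf1 (-0.144) were below 0 for TKO minus WT. Resf1 (-0.283) was below 0 for QKO minus WT, and the rest were above 0. Both contrasts use the WT libraries, which were also the reference of the contrast that chose the genes, and in which LAP2B over these genes was higher in naive cells. Genes of the highest LMNB1 decile on chromosomes other than 6 and 8 also differed by stage. Their QKO minus WT medians were -1.44 in naive cells and -0.61 in EpiLCs, and -0.65 and -0.48 for TKO minus WT. In EpiLCs most of the 10 genes were in decile 9, where these EpiLC medians were -0.52 for QKO minus WT and -0.37 for TKO minus WT. Relative to their deciles, the 10 genes had QKO minus WT medians of 1.10 in naive cells and 0.64 in EpiLCs.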

How the results depend on the processing

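On the spike-in scale the median gene was lower in QKO than in TKO or WT. For QKO minus TKO, 0 of the 10 genes were called higher at either stage, where 6.23% (naive) and 0.00142% (EpiLC) of all genes were. Of the 10, 3 were called lower in naive cells and 2 in EpiLCs, where 40.4% and 28.3% of all genes were. The sign turned for Ipo8 (-0.28), Caprin2 (-0.0486), Amn1 (-0.23) and Bicd1 (-0.14) in naive cells and for Tmtc1 (-0.40), Ipo8 (-0.23), Caprin2 (-0.0484), Amn1 (-0.11), Resf1 (-0.0448) and Bicd1 (-0.0459) in EpiLCs. For QKO minus WT, 0 of the 10 were higher at either stage, where 10.1% (naive) and 0.119% (EpiLC) of all genes were. In naive cells 10 were lower and in EpiLCs 7, where 65.1% and 55.3% of all genes were. The sign turned for Etfbkmt (-0.76) and Resf1 (-0.72) in naive cells and for Ipo8 (-0.82), Caprin2 (-0.60), Dennd5b (-0.42), Etfbkmt (-0.39), Amn1 (-0.49), Resf1 (-0.64) and Bicd1 (-0.77) in EpiLCs. From naive WT to EpiLC, 5 were lower for LAP2B (1.74% of all genes) and 5 for LMNB1 (0.251%), LMNB1 at Far2 turned to 0.0024, and IGG turned for 10 of 10 genes, to 0.73 to 0.90. In naive cells the study found less LAP2B CUT&RUN DNA relative to the yeast spike-in in TKO and QKO than in WT. It took this as a loss of LAP2B contacts across the genome. Division by the median gene removes a shift shared by all genes, so differences on the relative scale do not show it. The cause of the all-gene shifts was not tested here.

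With libraries divided by the median of proximal chromosome 6 genes, the median LBRKO difference in EpiLCs was 1.32, TKO minus WT had 2 lower in EpiLCs (5.39% of all genes), and QKO minus WT had 5 higher (44.4%) and 3 lower (29.2%) in naive cells and 7 higher (36%) and 1 lower (8.44%) in EpiLCs. Tmtc1 turned to 0.22 in QKO minus TKO naive cells, and in QKO minus WT naive cells Caprin2 turned to 0.14, Dennd5b to 0.51, Amn1 to 0.30 and Bicd1 to 0.29. With libraries divided by the mean gene, QKO minus WT had 5 higher in EpiLCs (23.5%) and Dennd5b turned to 0.24 in naive cells. With values per bin, QKO minus TKO had 1 higher (0.101%) and TKO minus WT 3 lower (6.96%) in EpiLCs, and for LMNB1 0 of the 10 and 0 of all tested genes were lower. The cause was not tested.

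Set beside genes of the same LMNB1 decile, the median of the 10 genes moved from 1.79 to 1.58 for LBRKO in EpiLCs and from 1.16 to 1.28 for QKO minus TKO in naive cells with chromosome 6 genes as the reference, which was added after the data had been seen. For QKO minus TKO it moved from 1.16 to 0.99 in naive cells with LMNB1 of the other stage, and from 0.66 to 0.54 in EpiLCs with deciles by WT LAP2B. For QKO minus WT in EpiLCs it moved from 0.64 to 0.39 with deciles by WT LAP2B and to 0.73 with LMNB1 of the other stage. For TKO minus WT in EpiLCs these 2 settings moved it from 0.01 to -0.18 and to 0.12.

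Leaving out each library gave 2 to 6 genes higher for QKO minus TKO in EpiLCs and 5 to 7 in naive cells. The median LBRKO differences were then 1.25 to 1.55 in naive cells and 1.62 to 1.74 in EpiLCs. Shares of all genes in these fits and with the replicate block are not given, so the counts show only how the tally moved. With the replicate block, 7 and 6 genes were higher for QKO minus TKO and 6 were lower for QKO minus WT in naive cells, and the block moved no count by over 1.5 times. The other pseudocounts and filters, and edgeR on recovered reads, moved none of the counts by over 1.5 times. With 3 libraries a group, smaller differences may be missed.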
